A study of Drosophila melanogaster with 7 samples.

Results

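The genes described here encode the proteins that pack and mark chromatin in Drosophila: the Polycomb and trithorax groups, the ATP-driven nucleosome remodelling complexes, heterochromatin factors, histone-modifying enzymes and insulator proteins. They were taken from a list of 53 gene symbols, and a cDNA feature on the array was assigned to a gene when the platform table paired it with that single symbol, current or older. On this rule 36 of the 53 genes were measured, by 46 features from 45 clones, among 7583 genes in all. For 17 genes no feature carried the single symbol, and ph-p, ph-d, Psc, Su(z)2, ash1, osa, Snr1, Acf, Su(var)3-9, Su(var)3-7, Sin3A, nej, Gcn5, Set1, su(Hw), Top2 and D1 were not analysed here.

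The study asked which transcripts depend on lola, a gene for BTB zinc-finger transcription factors that direct axon growth, at the time when axons extend. Each of 7 arrays of spotted cDNA clones set RNA of lola mutant embryos against RNA of control embryos, 10 to 12 hours after egg laying, each RNA sample being pooled from about 300 whole embryos. Mutant embryos were w1118, homozygous for lolaORE76, with the driver sca-GAL4 and the reporter UAS-tau-eGFP on opposite homologues, and control embryos were w1118 with sca-GAL4 over UAS-tau-eGFP and no lola mutation. Both were thus sorted by hand for the fluorescence that the driver produces in the nervous system. The 7 pairs were collected independently, and the dyes were swapped between them: mutant RNA was in Cy5 on arrays 1, 3 and 6, and on arrays 2, 4, 5 and 7 it was in Cy3. As a model the mutant has limits: ORE76 is a nonsense allele in the part common to all Lola isoforms, the same mutant chromosome was the source of both recombinants, so that other mutations on it could be homozygous too, and the embryo receives Lola from its mother. Because whole embryos were used, fewer cells of a type and less RNA per cell cannot be told apart, and because only ratios were used, the tissue could not be checked by the level of its markers.

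Every value below is a log2 ratio of mutant over control, the likely direction. The deposited ratios carry the opposite sign, and all were turned because 596 of 596 clones that could be matched to the study's own list of changed clones had the other sign there. In the turned values spir is above 0 and NLaz below 0, the direction that the study's separate quantitative RT-PCR gives for them. They were picked from a larger RT-PCR set, and not every gene of it was supported. The supported genes had the same sign in the study's array values and in RT-PCR. Among the rest, blistery and Target of rapamycin had opposite signs. If the columns of arrays 1, 3 and 6 were instead read as Cy5 over Cy3, every sign below would be reversed. The 4 features of lola itself averaged 0.28 ± 0.16 (SD, n = 7; adjusted p = 0.0344), with values on the 7 arrays between 0.02 and 0.46. The allele is a stop codon, so this RNA ratio does not check the labels. Arrays 1 and 3 stood apart from the rest: over all genes they correlated with each other at r = 0.74, and with the other arrays at r between -0.29 and 0.19. Both carried the mutant RNA in Cy5, as array 6 did, and why they stood apart was not tested. Array 6 also correlated weakly with every other array, at r between -0.13 and 0.36. Its ratios had the widest spread over all genes, with an SD of 0.39, against 0.27 to 0.30 on the other arrays.

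Polycomb group proteins keep developmental genes silent: Polycomb repressive complex 2 methylates histone H3, and Polycomb repressive complex 1 binds that mark and ubiquitinates histone H2A. Trithorax group proteins keep genes active, partly as histone methyltransferases and partly as subunits of remodelling complexes that slide, eject or exchange nucleosomes. Most of these proteins are used by every cell of the embryo, and mothers load the egg with many of their RNAs.

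None of the 36 genes passed an adjusted p of 0.05 (limma's moderated test with Benjamini-Hochberg adjustment over all 7583 genes), where 5.59% of all genes did. At an unadjusted p under 0.05 there were 5 of the 36, or 13.89%, against 19.5% of all genes, and none of the 46 features passed in a separate fit of all features, where 6.11% did and 5 of the 46 had an unadjusted p under 0.05. HDAC1 and lid were the genes above 0 among the 5, and the Suppressor of variegation gene for heterochromatin protein HP1a, written HP1a below, CTCF and E(bx) the genes below 0. The median of the 36 mean ratios was -0.01 and that of all genes -0.02, with 17 of the 36 above 0 and 19 below. The means ran from -0.31 for HP1a to 0.23 for HDAC1, while those of all genes ran from -1.60 to 1.88.

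Other fits of the same ratios called at most 4 of the 36 genes. Array weights gave 4, where 21.4% of all genes passed, robust regression gave 3, where 7.74% did, and the 4 arrays with mutant RNA in Cy3 alone gave 1, where 26.5% did. A fit without arrays 1 and 3, made because they stood apart, gave none, where 8.65% of all genes passed and 8 of the 36 had an unadjusted p under 0.05. HP1a was called in each of the first 3 of these fits, always below 0.

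The precision was enough to bound these ratios. The 95% interval of the mean lay within a 1.5-fold change in either direction for 36 of the 36 genes, against 94.22% of all genes, and within a 1.25-fold change for 28 of them, or 77.78%, against 70.99% of all genes. The SD over arrays had a median of 0.203 for the chromatin genes and 0.189 for all genes. Among the 424 genes that passed, the smallest absolute log2 ratio was 0.19, or 1.14-fold, and 126 had one no larger than that of HP1a. Only HP1a, HDAC1, CTCF, Sirt1 and lid had a mean beyond 0.19 in either direction, and ratios as small as those of the other 31 genes were called for no gene on these arrays. Ratios of 1 sign on at least 6 of 7 arrays were no more frequent than usual, with 10 of the 36 genes against 26.9% of all genes.

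**Figure D1:**
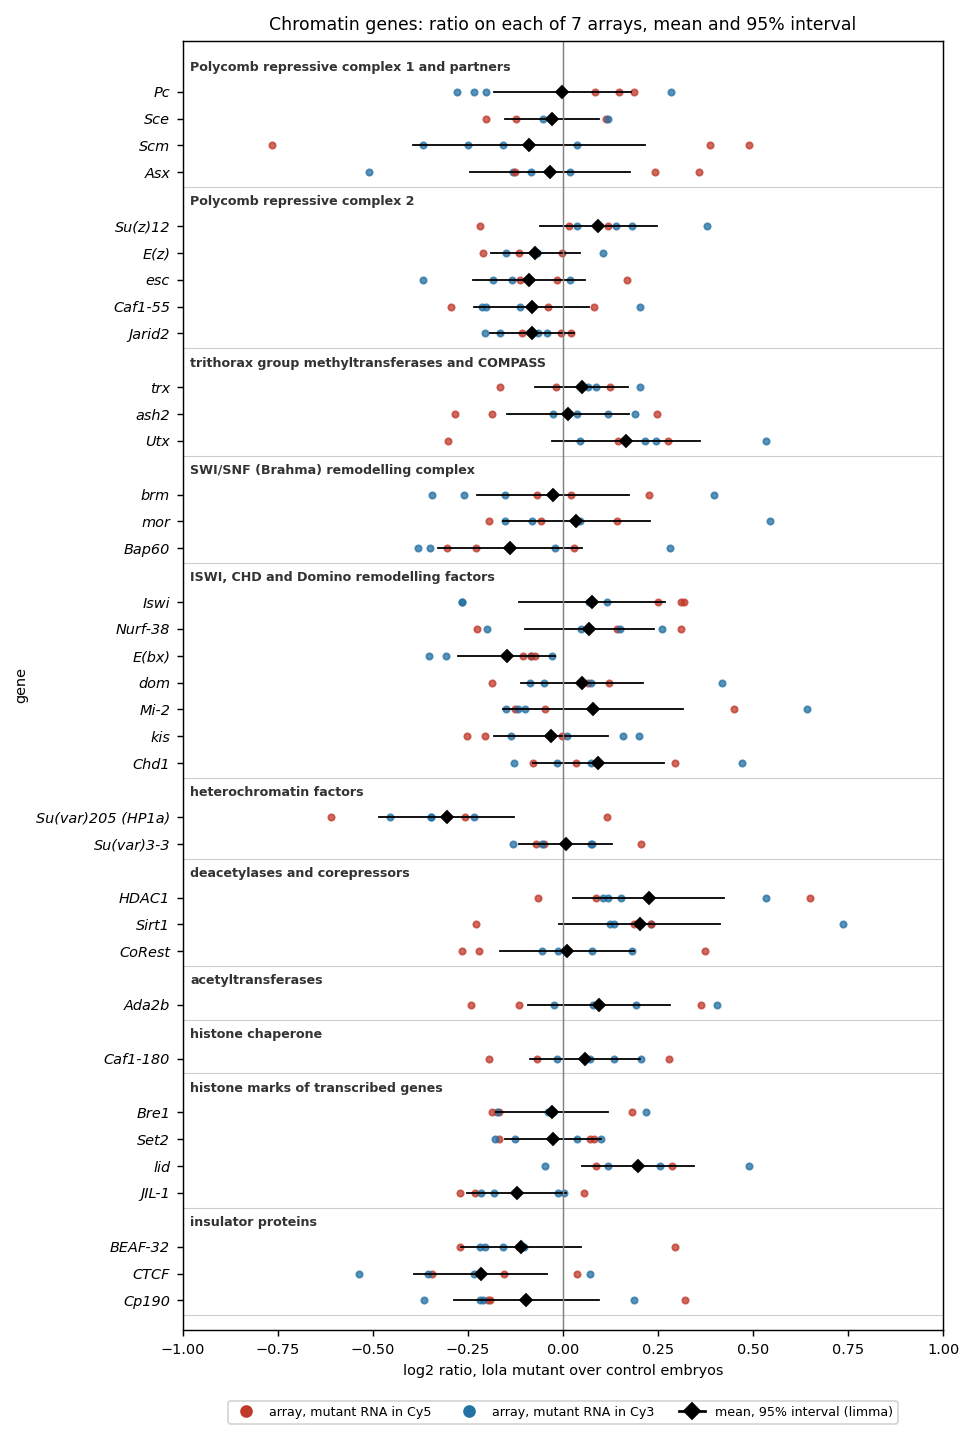
Log2 ratio of lola mutant over control embryos (x axis) for the 36 measured chromatin genes (rows, grouped by role): circles are the 7 arrays, red where the mutant RNA carried Cy5 and blue where it carried Cy3, and diamonds with lines are the mean and its 95% interval from limma. Most means lie within 0.1 of 0, HP1a lies farthest below 0 at -0.31, and Scm has the widest spread of arrays.

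The 4 measured genes of Polycomb repressive complex 1 and its partners lay close to 0, with means between -0.09 and -0.0019. Pc, the chromodomain protein that reads the Polycomb mark, had 0.19, -0.28, 0.09, 0.29, -0.20, 0.15 and -0.24 on arrays 1 to 7, with a mean of -0.0019 ± 0.23 (SD, n = 7; adjusted p = 0.993). It was above 0 on 4 arrays and below 0 on 3, and its values on both dye orientations overlapped. Sce, the ubiquitin ligase also called dRing, averaged -0.03 ± 0.12.

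Scm, a sterile alpha motif protein that joins Polycomb complexes, varied most of all 36 genes. Its ratios on arrays 1 to 7 were 0.49, 0.04, 0.39, -0.25, -0.37, -0.77 and -0.16, with a mean of -0.09 ± 0.44 (SD, n = 7; adjusted p = 0.791). It was highest on arrays 1 and 3 and lowest on array 6. Asx, the partner of the deubiquitinase Calypso, was likewise highest on arrays 1 and 3, at 0.36 and 0.24, and reached its lowest ratio of -0.51 on array 7.

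Of the 5 genes of Polycomb repressive complex 2, 4 had means just below 0 and none passed. E(z), the histone methyltransferase of the complex, averaged -0.07 ± 0.10 with a 95% interval of -0.19 to 0.04, and it was below 0 on 6 of 7 arrays. The WD40 subunits averaged -0.09 ± 0.17 for esc and -0.08 ± 0.18 for Caf1-55, a histone-binding protein shared with other complexes. Jarid2, an accessory subunit, had the smallest spread of the 36 genes, with a mean of -0.08 ± 0.083, and was below 0 on 6 of 7 arrays. Su(z)12, the zinc-finger subunit, averaged 0.09 ± 0.18 and was above 0 on every array except array 6, where it stood at -0.22.

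The genes trx, ash2 and Utx had means above 0 and none of the 3 passed. The mean was 0.05 ± 0.12 for trx, a histone H3 methyltransferase, and 0.01 ± 0.19 for ash2, a subunit shared by the COMPASS methyltransferase complexes. Utx, the demethylase that removes the Polycomb mark, had -0.30, 0.22, 0.14, 0.53, 0.24, 0.28 and 0.04 on arrays 1 to 7, with a mean of 0.17 ± 0.26 (SD, n = 7; adjusted p = 0.344). It was above 0 on every array but the first, and farthest from 0 on array 4.

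In the SWI/SNF complex, whose motor is brm, the means were -0.03 ± 0.26 for brm, 0.03 ± 0.25 for its scaffold subunit mor and -0.14 ± 0.24 for the accessory subunit Bap60. All 3 had their highest ratio on array 7, at 0.40 for brm, 0.54 for mor and 0.28 for Bap60. The pair of mor clones followed each other over the arrays: LD06146 averaged -0.01 ± 0.24 and LD25286 averaged 0.08 ± 0.28, and both were highest on array 7, at 0.43 and 0.66.

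The 7 ISWI, CHD and Domino factors had means between -0.15 and 0.09. E(bx), the large subunit of the nucleosome remodelling factor NURF, was the one gene of the 36 with the same sign on all 7 arrays, which held for 2.778% of the chromatin genes and 9.469% of all genes. Its ratios on arrays 1 to 7 were -0.11, -0.31, -0.07, -0.08, -0.35, -0.08 and -0.03, with a mean of -0.15 ± 0.13 (SD, n = 7; 95% interval -0.28 to -0.02; adjusted p = 0.183). Arrays 2 and 5 stood apart at the low end, and the other 5 lay between -0.11 and -0.03. Both clones showed this order, with means of -0.11 ± 0.083 for LD30146 and -0.19 ± 0.17 for RE57757.

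The motor of NURF, Iswi, averaged 0.08 ± 0.25, and its pyrophosphatase subunit Nurf-38 averaged 0.07 ± 0.21. Iswi separated by dye, with a mean of 0.29 on the 3 arrays with mutant RNA in Cy5 and -0.09 on the 4 with it in Cy3. A test of the dye difference gave an adjusted p of 0.0761 for Iswi, the lowest of the 36 genes. None of the 36 passed that test, where 12.9% of all genes did, and 1 of the 36 had an unadjusted p under 0.05, against 27.72% of all genes.

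Mi-2, the motor of the NuRD remodelling and deacetylase complex, split the arrays in a different way. Its ratios on arrays 1 to 7 were -0.13, -0.12, -0.05, -0.15, -0.10, 0.45 and 0.64, with a mean of 0.08 ± 0.33 (SD, n = 7; adjusted p = 0.758). Arrays 1 to 5 lay within a narrow band just below 0 and arrays 6 and 7 well above it. The mean was 0.05 ± 0.19 for dom, which exchanges histone variants, 0.09 ± 0.21 for Chd1, and -0.03 ± 0.17 for kis, a CHD protein of the trithorax group. The kis clones GM02209 and LD09721 averaged -0.10 ± 0.15 and 0.03 ± 0.22, and they differed most on array 7, at -0.0019 and 0.40.

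HP1a, the protein that binds methylated histone H3 in heterochromatin, was the gene product whose RNA had the largest mean ratio of the 36 genes in either direction. Its ratios on arrays 1 to 7 were -0.26, -0.46, -0.61, -0.23, -0.35, 0.12 and -0.35. It was below 0 on 6 of 7 arrays, in both dye orientations, and above 0 on array 6 alone. The mean was -0.31 ± 0.23 (SD, n = 7; 95% interval -0.48 to -0.13), or 0.809-fold, with an adjusted p of 0.0565 in limma, just outside the threshold, and an exact two-sided sign-flip permutation gave an unadjusted p of 0.0312, where the smallest possible is 0.0156. By unadjusted p it was number 458 of all genes, with 0.00342, where the largest p among the genes that passed was 0.00279. Without array 6 it passed, at -0.38 and an adjusted p of 0.0124, in a fit in which 6.86% of all genes did, and without arrays 1 and 3 it stood at -0.25 with an adjusted p of 0.114. Su(var)3-3, the Lsd1 demethylase, averaged 0.01 ± 0.12.

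**Figure D2:**
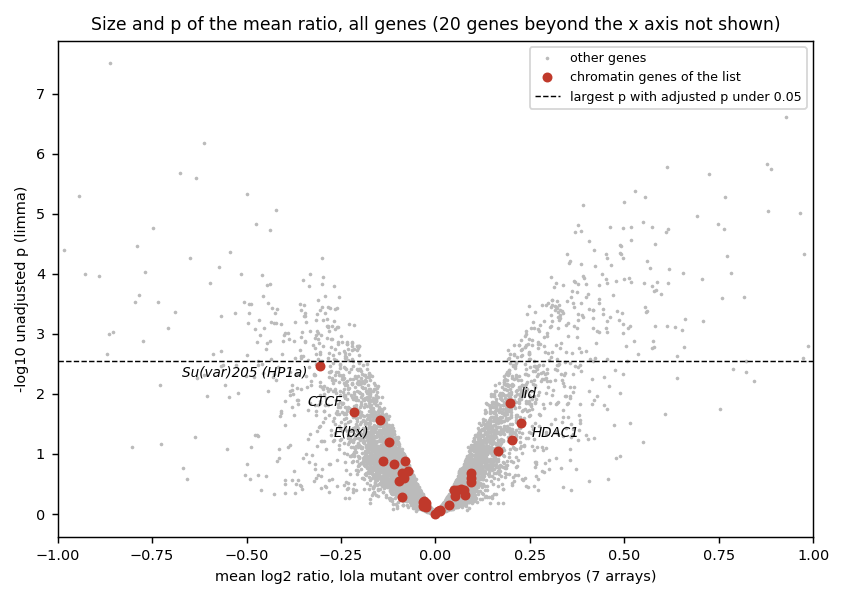
Mean log2 ratio of mutant over control on 7 arrays (x axis) against -log10 of limma's unadjusted p (y axis), with 1 point for each of 7583 genes except the 20 beyond the x axis, the 36 chromatin genes in red, and a dashed line at the largest p whose adjusted p is under 0.05. No red point lies above the line, and HP1a is the one nearest to it.

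The 3 deacetylases and corepressors had means above 0. HDAC1, the class I deacetylase also called Rpd3, had 0.09, 0.11, -0.07, 0.12, 0.15, 0.65 and 0.53 on arrays 1 to 7, with a mean of 0.23 ± 0.26 (SD, n = 7; 95% interval 0.03 to 0.42; adjusted p = 0.193). It was above 0 on 6 of 7 arrays, and arrays 6 and 7 stood far above the others, as they did for Mi-2. Sirt1, an NAD-dependent deacetylase, had -0.23, 0.23, 0.19, 0.74, 0.12, 0.23 and 0.13, with a mean of 0.20 ± 0.28 (SD, n = 7; adjusted p = 0.281). It was below 0 on array 1 and highest on array 4, the same arrays that held the extremes of Utx.

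CoRest, the partner of Lsd1, averaged 0.01 ± 0.22, and its clones disagreed more than those of any other of the 8 chromatin genes with more than 1 clone. Clone GH01486 averaged 0.16 ± 0.23 and clone LD11215 averaged -0.13 ± 0.28, a gap of 0.29 that had the same sign on 6 of 7 arrays. The gap was widest on array 4, at 0.45 for GH01486 and -0.09 for LD11215, and nearly as wide on array 3, at 0.05 and -0.49. Neither clone passed, with adjusted p values of 0.341 and 0.485 in the fit of features. The acetyltransferase adaptor Ada2b averaged 0.09 ± 0.24 and the p180 subunit of chromatin assembly factor averaged 0.06 ± 0.16.

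Among the enzymes that mark transcribed genes, lid, a histone H3 demethylase now called Kdm5, lay highest. Its ratios on arrays 1 to 7 were 0.09, 0.26, 0.29, 0.12, -0.05, 0.19 and 0.49, with a mean of 0.20 ± 0.17 (SD, n = 7; 95% interval 0.05 to 0.35; adjusted p = 0.125). It was above 0 on every array except array 5, where it was close to 0. JIL-1, a histone H3 kinase, averaged -0.12 ± 0.13, with 4 arrays between -0.27 and -0.18 and the other 3 within 0.06 of 0. The ubiquitin ligase Bre1 and the methyltransferase Set2 averaged -0.03 ± 0.17 and -0.03 ± 0.13.

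The insulator proteins BEAF-32, CTCF and Cp190 all had means below 0, and each of them was below 0 on every one of arrays 1 to 5. CTCF, a zinc-finger protein that binds insulator DNA, had -0.34, -0.54, -0.16, -0.24, -0.36, 0.04 and 0.07 on arrays 1 to 7, with a mean of -0.22 ± 0.22 (SD, n = 7; 95% interval -0.39 to -0.04; adjusted p = 0.15). Cp190, the BTB cofactor that the DNA-binding insulator proteins recruit, had -0.20, -0.37, -0.19, -0.21, -0.22, 0.32 and 0.19, with a mean of -0.10 ± 0.25 (adjusted p = 0.595). BEAF-32, a boundary element factor, had -0.12, -0.21, -0.27, -0.10, -0.22, 0.30 and -0.16, with a mean of -0.11 ± 0.19 (adjusted p = 0.442). All 3 were above 0 on array 6, and CTCF and Cp190 also on array 7.

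Arrays 6 and 7 held the highest values of many of these genes. Of the 36, 28 had their highest ratio on array 6 or 7, or 77.8%, against 33.6% of all genes. Their lowest ratio was there for 5 of the 36, against 38.9% of all genes. Most clones of the 36 genes have names that begin with LD, and the shares of all genes were not matched for the type of clone. The part of clone type in these counts was not tested. Array 6 had the widest spread over all genes, as given above. The median of the 36 ratios was -0.15, -0.12, -0.06, 0.01, -0.09, 0.13 and 0.14 on arrays 1 to 7, while the median of all genes stayed between -0.01 and 0.01 on each of the 7 arrays. The number of the 36 above 0 was 8, 10, 13, 19, 11, 29 and 26. The choice of these arrays followed from the values, so these counts are a description without a test, and arrays 6 and 7 carried the mutant RNA in opposite dyes.

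**Figure D3:**
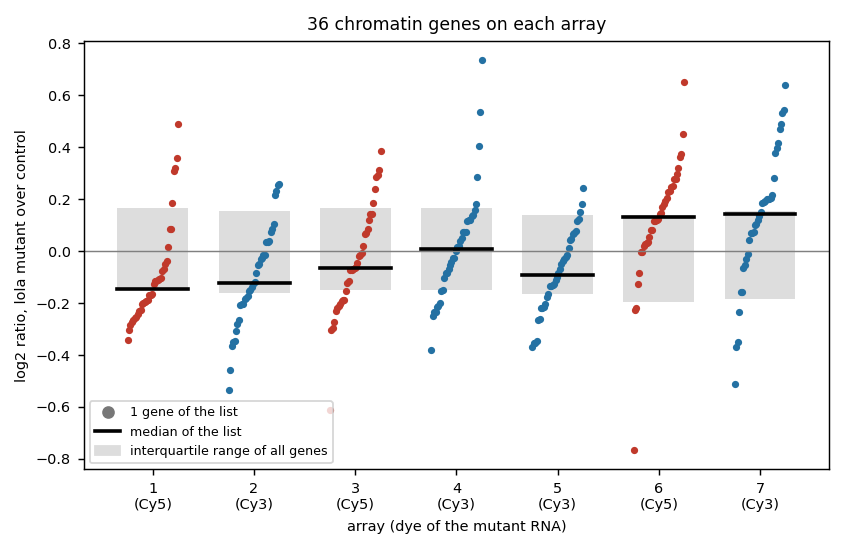
Log2 ratios of the 36 chromatin genes on each of the 7 arrays (points, ordered by value within an array), with their median (black line) and the interquartile range of all 7583 genes (grey bars). The median lies at or below 0.01 on arrays 1 to 5 and at 0.13 and 0.14 on arrays 6 and 7.

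The pattern differed between the groups of genes. The insulator genes had medians of -0.20, -0.37, -0.19, -0.21 and -0.22 on arrays 1 to 5, and of 0.30 and 0.07 on arrays 6 and 7. The SWI/SNF genes had their highest median, 0.40, on array 7. The 4 genes of Polycomb repressive complex 1 and its partners ran otherwise. Their medians were highest on arrays 1 and 3, at 0.27 and 0.16, and lowest on array 7, at -0.20. Scm and Asx were highest on arrays 1 and 3, but Pc was highest on array 4. Sce ran the other way, lowest on array 1 at -0.20 and highest on array 7 at 0.12. The clone name of Sce begins with LD, and those of Pc, Scm and Asx begin with RE or AT. Iswi and Nurf-38, of another group but with RH and RE clones, also stood high on array 1, at 0.32 and 0.31. The E(bx) clone RE57757 stood at -0.11 there. Whether these differences followed the complex or the type of clone was not tested.

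Markers of some other tissues moved on array 6, and those of muscle on array 7 as well. The median of the 14 measured of 23 listed muscle genes was -1.34 on array 6 and -0.36 on array 7, and between 0.07 and 0.47 on the other 5. The 14 measured of 20 cuticle and tracheal genes had medians of -0.46 on array 6 and 0.00 on array 7, against 0.03 to 0.32 elsewhere, and the 12 measured of 19 maternal and germ line genes had a median of 0.24 on array 6 and of at most 0.05 on the others. The 12 measured of 22 neuron and glia genes had medians between -0.21 and 0.09, and the 13 of 16 haemocyte and fat body genes between 0.02 and 0.31. The part of these tissues in the ratios of the chromatin genes was not tested.

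**Figure D4:**
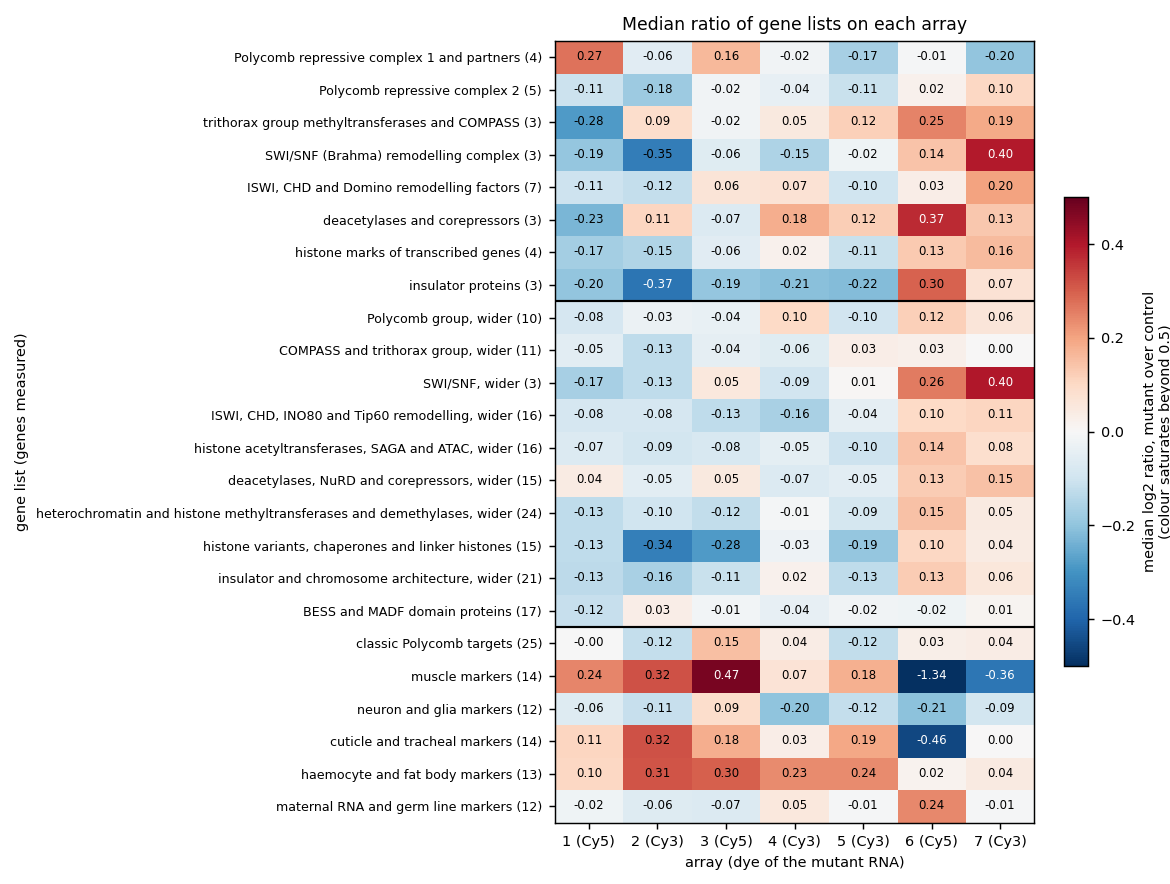
Median log2 ratio of mutant over control (colour and printed value) of gene lists (rows, with the number of genes measured) on the 7 arrays (columns): roles of the chromatin genes with 3 or more genes above the first line, wider chromatin lists between the lines, and Polycomb targets and tissue markers at the bottom. Most chromatin lists are highest on array 6 or 7, where the muscle markers stand at -1.34 and -0.36.

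A wider set held 148 measured genes outside the list, taken from lists of chromatin genes grouped by complex. Of these, 3 rose and 3 fell, or 4.05%, against 5.59% of all genes, of which 3.24% rose and 2.35% fell. The median ratio of the 148 was -0.02, the same as that of all genes. No gene passed among 10 further Polycomb group genes, 11 COMPASS and trithorax genes, 3 SWI/SNF genes, 16 acetyltransferase genes or 24 genes for heterochromatin proteins and for histone methyltransferases and demethylases. At an unadjusted p under 0.05 these lists held 1, 4, 0, 2 and 5 genes. The wider set counts sls with the COMPASS and trithorax genes and Act87E with the remodelling genes. Both were also among the muscle genes, and neither passed.

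The gene of these 6 with the lowest adjusted p was simj, which rose and encodes the p66 subunit of NuRD. Its ratios on arrays 1 to 7 were 0.13, 0.36, 0.41, 0.57, 0.34, 0.35 and 0.59, with a mean of 0.39 ± 0.16 (SD, n = 7; adjusted p = 0.00946). It was above 0 on all 7 arrays, it passed without each array in turn, and both of its clones passed, at 0.46 ± 0.23 and 0.32 ± 0.096. The other NuRD genes measured did not pass: HDAC1 and Mi-2 are given above, Caf1-55 stood below 0, and MTA1-like averaged 0.08 ± 0.27 with its highest ratio, 0.56, on array 7. The study chose its list on these same arrays, and simj and Gas41 are on it, so that list is no independent evidence for them.

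The genes that fell belonged to 3 different groups. Gas41, a YEATS domain subunit of the Tip60 complex, had ratios between -0.47 and -0.15 and averaged -0.27 ± 0.11 (adjusted p = 0.021), the only one of 16 wider remodelling genes to pass. Ibf1, an insulator protein that works with Cp190, had -0.36, -0.69, -0.55, -0.53, -0.44, 0.16 and -0.41 on arrays 1 to 7 and averaged -0.40 ± 0.27 (adjusted p = 0.0329). Like the insulator proteins of the list it was above 0 on array 6, and it was below 0 on the other 6. Its partner Ibf2, named after its values were seen, averaged -0.34 ± 0.31 and did not pass (adjusted p = 0.0895). Fkbp39, a nuclear prolyl isomerase and histone chaperone, averaged -0.26 ± 0.15 (adjusted p = 0.0425).

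Of 17 measured genes listed under BESS and MADF domains, which occur in DNA-binding factors, 2 rose and none fell, where 3.24% of all genes rose. Whether each of the 17 encodes such a domain was not checked. The list as a whole was not tested, and its median ratio was -0.0041. Coop, a corepressor of Wingless signalling, had -0.10, 0.82, 0.11, 1.23, 0.80, 1.11 and 0.62 on arrays 1 to 7 and averaged 0.66 ± 0.49 (adjusted p = 0.0361). Arrays 1 and 3 lay near 0 and the other 5 well above it. The gene hng3 averaged 0.24 ± 0.12 (adjusted p = 0.0348) and was above 0 on all 7 arrays.

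These calls rested on most arrays being present. Gas41 no longer passed without array 2, 3, 4 or 5 (adjusted p from 0.0534 to 0.0831), Ibf1 without array 2, 3, 4, 5 or 7 (0.0746 to 0.112), Fkbp39 without the same arrays (0.0559 to 0.143), Coop without array 2, 4, 5, 6 or 7 (0.0598 to 0.117), and hng3 without any array (0.0551 to 0.0821).

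**Figure D5:**
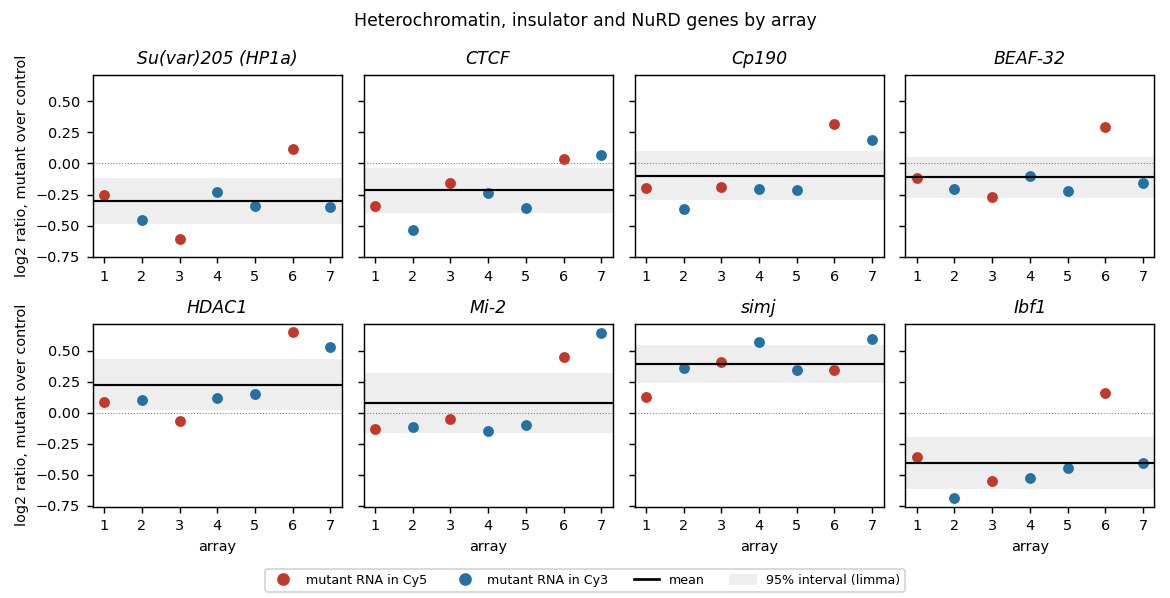
Log2 ratio of mutant over control (y axis) on each of the 7 arrays (x axis) for 6 genes of the list and for simj and Ibf1 of the wider lists: points are arrays, red with mutant RNA in Cy5 and blue in Cy3, the line is the mean and the grey band its 95% interval from limma. Insulator genes and HP1a lie below 0 on arrays 1 to 5, HDAC1 and Mi-2 stand out on arrays 6 and 7, and simj lies above 0 on all 7.

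Some other heterochromatin proteins, named after their values were seen, also had means below 0 without passing. HP1b averaged -0.18 ± 0.19 (adjusted p = 0.195), HP1c averaged -0.17 ± 0.16 (adjusted p = 0.178) and HP4 averaged -0.24 ± 0.24 (adjusted p = 0.135). In contrast, HP5 averaged 0.05 ± 0.17 and Su(var)2-HP2 averaged -0.02 ± 0.17. They were picked from the list of 24 heterochromatin, methyltransferase and demethylase genes, whose median ratio was -0.03. Of these 24, 5 had an unadjusted p under 0.05 in limma, against 19.5% of all genes. HP1b and HP4 shared with HP1a a ratio below 0 on each of arrays 1 to 5 and above 0 on array 6. The histone variant gene His2Av, whose product dom exchanges into nucleosomes, averaged -0.21 ± 0.22 (adjusted p = 0.175) and had the sign of HP1a on all 7 arrays. In the list of histone variants, chaperones and linker histones, 6 of 15 genes had an unadjusted p under 0.05 and 1, Fkbp39, passed, against 19.5% and 5.59% of all genes, and the median ratio was -0.09. The list itself was not tested.

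The gene mod(mdg4), a BTB insulator factor named after its values were seen, showed a difference between clones. Clone GH07769 averaged -0.29 ± 0.13 (adjusted p = 0.0199 in the fit of features), and clones SD03001 and SD11801 averaged 0.01 ± 0.19 and -0.01 ± 0.12. The gene average was -0.10 ± 0.087 and did not pass (adjusted p = 0.33). Which transcripts each clone detects was not analysed here.

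Genes long known as targets of Polycomb silencing gave a single call. Of 25 measured of 58 listed, 1 rose and none fell, with 4 at an unadjusted p under 0.05, where 5.59% of all genes passed and 19.5% had such a p, and the median of the 25 was 0.0025. The gene that rose was salr, a zinc-finger factor of the spalt pair, which averaged 0.25 ± 0.14 (SD, n = 7; adjusted p = 0.0431) and was above 0 on all 7 arrays, from 0.07 on array 7 to 0.40 on arrays 1 and 3. It passed without array 7 and in none of the other fits that left out 1 array (adjusted p from 0.0708 to 0.116). For the homeotic gene Antp, named after its values were seen, clone GM05003 averaged -0.27 ± 0.12 (adjusted p = 0.0227 in the fit of features) and clone LD33666 averaged 0.04 ± 0.13 (adjusted p = 0.778). For toy, an eye and brain homeobox factor also named after its values were seen, clone GH14454 averaged -0.26 ± 0.13 (adjusted p = 0.0275) and clone GH26083 averaged -0.04 ± 0.24 (adjusted p = 0.859).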

How the data were processed

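Per the labels and the study's methods, the authors read spot intensities with GenePix, made no background correction, normalised each array by print-tip loess and the set of arrays by scale in limma, whose version is not given in the sources used here. The authors deposited a table of log2 ratios with a column for each array. Column medians as deposited lay between -0.0194 and 0.0187; whether genes were further centred is not stated. Spot brightness was not used here, so weak features carry the same weight as strong ones, and the 7 arrays limit the precision. All columns were multiplied by -1. The table held 10376 features; 149 control spots and 55 clones that the study assigns to retrotransposons or several sequences were left out of gene averages. The platform annotation paired 8598 features with 1 symbol, 517 with several and 1112 with none, and 8454 of the 8598 were matched by gene ID to a RefSeq table (Release 6 plus ISO1 MT) for current symbols. Repeat spots of a clone and then clones of a gene were averaged. Means over arrays were tested in limma 3.58.1 under R 4.3.3 (lmFit, then eBayes; two-sided), with Benjamini-Hochberg adjustment over all 7583 genes at 0.05; a fit over 10227 features stood beside it. Scripts were tested on simulated data.

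The members and lists were chosen with earlier results of these data known. Named in full were members that pass, the 6 with the largest absolute mean, the 4 whose clones differ most and any that pass when 1 array is left out, and genes of wider lists that pass; Pc, E(bx), Scm, Mi-2, Cp190, BEAF-32 and the genes so marked were added after their values were seen. Alternatives were each array left out, a dye term, array weights, each dye orientation alone, single features, quantile normalisation, median centring, a minimum fold of 1.1, robust regression, the median of clones, left-out spots kept, an exact sign-flip permutation and, added after seeing the data, arrays 1 and 3 left out.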

Additional observations from a re-analysis of the deposited data

Results flagged for a closer look

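BEAF-32 had 1 array far from the others. Its ratio of 0.30 on array 6 stood apart from the other 6, all below 0, and the gap to the nearest of them was 0.702 of the whole range, above Dixon's 95% critical value for 7 values. It was 1 of 36 chromatin genes examined in this way, and chance flags about 1 group in 20.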

How the results depend on the processing

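Pairing was part of every fit. Each array sets a mutant sample against its control, and the mean of these ratios was tested against 0. None of the 36 chromatin genes passed in 15 of 19 alternatives; at an unadjusted p under 0.05 limma gave between 1 and 8 of them in these fits of gene averages. Leaving out 1 array gave 0 to 1 genes (HP1a without array 6). Array weights gave 4 genes (Utx above 0; E(bx), HP1a and CTCF below), with 21.4% of all genes passing; the 4 Cy3 arrays gave 1, HP1a, with 26.5%; robust regression gave 3 (Sirt1 above 0; HP1a and Cp190 below), with 7.74%. Over all genes, 424 passed, and leaving out 1 array gave 136 to 520. The count was 641 with a dye term, 1621 with array weights (757 higher, 864 lower), 2006 on the Cy3 arrays, 93 with a minimum fold, 656 without arrays 1 and 3, and 0 on the 3 Cy5 arrays, where 1307 had an unadjusted p under 0.05. Why they moved was not tested; the dye subsets and the fits without arrays hold fewer arrays. The mean of 25 of the 36 genes kept its sign without each array, and that of 11 changed sign without at least 1.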
